A study of Homo sapiens with 9 samples.

Results

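The 6 genes described here belong to the urokinase plasminogen system and to the serpins, a family of serine protease inhibitors. They are PLAU, PLAT, PLAUR, SERPINE2, SERPINF1 and SERPINI1, taken by gene symbol from the 58381 rows of the deposited gene tables, and all 6 were found and passed the filter on low counts that left 17235 genes for testing. They were read in TC-32, an established line of Ewing sarcoma whose driver is the fusion oncogene EWSR1::FLI1. The series has 9 RNA-seq libraries, 3 in each of 3 groups. The RFP group carried the pLOC lentiviral vector with a red fluorescent protein, and the ETS1-Low and ETS1-High groups carried pLOC with a synthetic human ETS1 cDNA. Transduced cells were selected with puromycin and sorted as single cells, so an ETS1 group can stand for a clone. The labels give neither the number of clones nor the origin of the 3 libraries of a group, so a difference between clones and an effect of the ETS1 level cannot be told apart, and p-values measure the spread between libraries, which may be technical.

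PLAU encodes urokinase and PLAT encodes tissue plasminogen activator, the serine proteases that cut plasminogen into the broad protease plasmin. PLAUR encodes the receptor that holds urokinase on the cell surface, where plasmin is made close to fibrin, matrix and latent growth factors. SERPINE2 encodes glia-derived nexin, a secreted inhibitor of thrombin, urokinase and plasmin. SERPINI1 encodes neuroserpin, an inhibitor of tissue plasminogen activator in the nervous system, and SERPINF1 encodes pigment epithelium-derived factor, a serpin that does not inhibit proteases and is known to restrain blood vessel growth. PLAU is a known target of ETS factors in other cell types.

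Promoter stretches of PLAU and SERPINI1 are shown because these genes had the falls described below, and a short stretch of PLAUR because the receptor gene did not fall. They come from the RefSeq promoter table on GRCh38.p14, which held 4 of the 6 genes (PLAU, PLAUR, SERPINE2 and SERPINI1), and run from 5′ to 3′ on the strand of the gene. For PLAU and SERPINI1 they cover the 250 bases before a RefSeq transcription start, cut where an annotated exon of the gene begins. All printed stretches lie within the GENCODE v44 bounds of their genes, after the first annotated base. Capitals mark GGAA or its reverse complement TTCC, the core of the sites that ETS factors bind, in PLAU and SERPINI1, and TGAGTCA, the reverse complement of TGACTCA, in PLAUR. The PLAUR stretch is short because its whole window lies in annotated exons. The window of PLAUR also holds GGAA, counted below, outside the printed stretch.
PLAU, first start, chr10:73910360-73910604, plus strand: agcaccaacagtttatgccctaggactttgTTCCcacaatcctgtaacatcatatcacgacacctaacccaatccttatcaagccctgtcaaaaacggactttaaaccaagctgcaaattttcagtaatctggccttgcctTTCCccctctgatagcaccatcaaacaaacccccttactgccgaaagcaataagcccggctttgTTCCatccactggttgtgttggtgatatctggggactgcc
PLAU, second start, chr10:73910882-73911103, plus strand: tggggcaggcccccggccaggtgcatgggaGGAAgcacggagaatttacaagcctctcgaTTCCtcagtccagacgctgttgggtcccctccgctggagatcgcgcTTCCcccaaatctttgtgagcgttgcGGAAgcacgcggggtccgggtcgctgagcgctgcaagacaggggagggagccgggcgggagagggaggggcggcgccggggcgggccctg
SERPINI1, chr3:167735471-167735720, plus strand: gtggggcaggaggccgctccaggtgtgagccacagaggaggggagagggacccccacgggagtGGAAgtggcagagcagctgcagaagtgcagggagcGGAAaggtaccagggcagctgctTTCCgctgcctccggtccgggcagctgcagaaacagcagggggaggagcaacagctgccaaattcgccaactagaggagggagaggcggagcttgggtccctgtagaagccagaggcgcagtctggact
PLAUR, chr19:43670339-43670365, minus strand: cacaactccaTGAGTCAgggccgagcc

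GGAA was searched on both strands, overlaps allowed, in the full 250 bases before each start. It occurred 3 times before the first and 4 times before the second PLAU start, 4 times before the PLAUR start, 3 times before the SERPINI1 start and 1 time before each of the 2 SERPINE2 starts. Of all 35116 windows of that length in the table, 92.7% held it, with a median of 3. AGGAAG, a longer ETS form that contains the core, was present before the second PLAU start and before PLAUR and is held by 28.7% of windows. CCGGAAGT, held by 3.42% of windows, and GGAAGGAA, a tandem of the core held by 3.06%, were in none of the 6 windows. TGACTCA or its reverse complement TGAGTCA, the AP-1 motif, was found in the PLAUR window only, 186 bases upstream of the RefSeq start. It is held by 4.2% of all windows. Sequence farther upstream was not searched, so these counts do not cover more distant sites of any of the genes. All 250 bases of the PLAUR window, the printed stretch included, lie in annotated exons of PLAUR in GENCODE v44, as do 164 bases of the window before the second SERPINE2 start. A match is a description of letters and not of binding. Both PLAU windows overlap an exon of C10orf55, a long noncoding RNA gene on the opposite strand. It had mean expected counts of 1.33 in RFP, 0.667 in ETS1-Low and 0.0 in ETS1-High, against 55 or more in each library for PLAU.

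The libraries held between 39484704 and 46654734 expected counts. ETS1 followed its labels, with 87 to 105 counts per library in RFP, 400 to 488 in ETS1-Low and 765 to 879 in ETS1-High, without separating vector from endogenous transcripts. The 8 Ewing sarcoma markers examined (CD99, NKX2-2, FLI1, NR0B1, STEAP1, PRKCB, LIPI and CCND1) had at least 10 FPKM in each library, and their summed level was 1020 to 1040 FPKM in RFP, 1350 to 1370 in ETS1-Low and 1400 to 1410 in ETS1-High. The 14 markers of blood, endothelial, epithelial, muscle and fibroblast cells summed to 2.67 to 3.23, 3.29 to 3.68 and 4.15 to 5.61 FPKM. Of these, 11 stayed under 1 FPKM in all 9 libraries, CD3E was at 0 throughout, and COL1A2, a fibroblast marker, was at 0 in 8 libraries. The other fibroblast markers of the list, DCN and LUM, were higher in ETS1-High. The rise of that sum in ETS1-High came with PECAM1 (mean 0.79, 1.16 and 1.71 FPKM in RFP, ETS1-Low and ETS1-High), KRT5 (0.0367, 0.387 and 1.26), DCN (0.0267, 0.0633 and 0.663) and LUM (0.0, 0.0 and 0.333), and the part of these in the results below was not tested. Between 59.2% and 74.2% of all genes tested were called in the 3 comparisons, at an adjusted p under 0.05 in the edgeR quasi-likelihood test, so a call alone sets no gene apart here.

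Of the 6 genes, 4 were lower in both ETS1 groups than in RFP: PLAU, PLAT, SERPINF1 and SERPINI1. The urokinase receptor gene PLAUR and the inhibitor gene SERPINE2 changed less. SERPINE2 was lower in ETS1-Low and higher in ETS1-High than in RFP, but the higher levels of both genes in ETS1-High turned to lower ones relative to the median of the genes within 10 Mb. In ETS1-High against RFP 6 of 6 genes were called, beside 74.2% of all genes tested. Of these 2 were higher and 4 lower, beside 37.0% and 37.2% of all genes, and the libraries of the groups did not overlap for 6 of 6, beside 75.5%. In ETS1-Low against RFP 5 of 6 were called, beside 74.1% of all genes. Of these 0 were higher and 5 lower, beside 37.9% and 36.2%, and 5 of 6 did not overlap, beside 76.0%. Between ETS1-High and ETS1-Low 4 of 6 were called, beside 59.2%, with 2 higher and 2 lower, beside 29.9% and 29.3%, and 5 of 6 did not overlap, beside 63.2%. Falls of at least 2-fold were called for 4 genes in ETS1-High against RFP and 3 in ETS1-Low against RFP, where 11.4% and 12.2% of all genes had such falls, and for 1 gene (PLAU) in ETS1-High against ETS1-Low, beside 3.69%. A called fall in both ETS1 groups was found for 27.6% of all genes, and such a fall of at least 2-fold in both, as for PLAT, SERPINF1 and SERPINI1, for 8.49%. SERPINI1 stands in these counts of falls although it passed the filter on low counts only through RFP, the group where it is high. The 6 genes were chosen with earlier results of these data known. The shares over all genes therefore give scale only and do not test whether the set is unusual. In bulk libraries, fewer cells that express a gene and less RNA per cell cannot be told apart. Both comparisons with RFP share its 3 libraries.

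**Figure D1:**
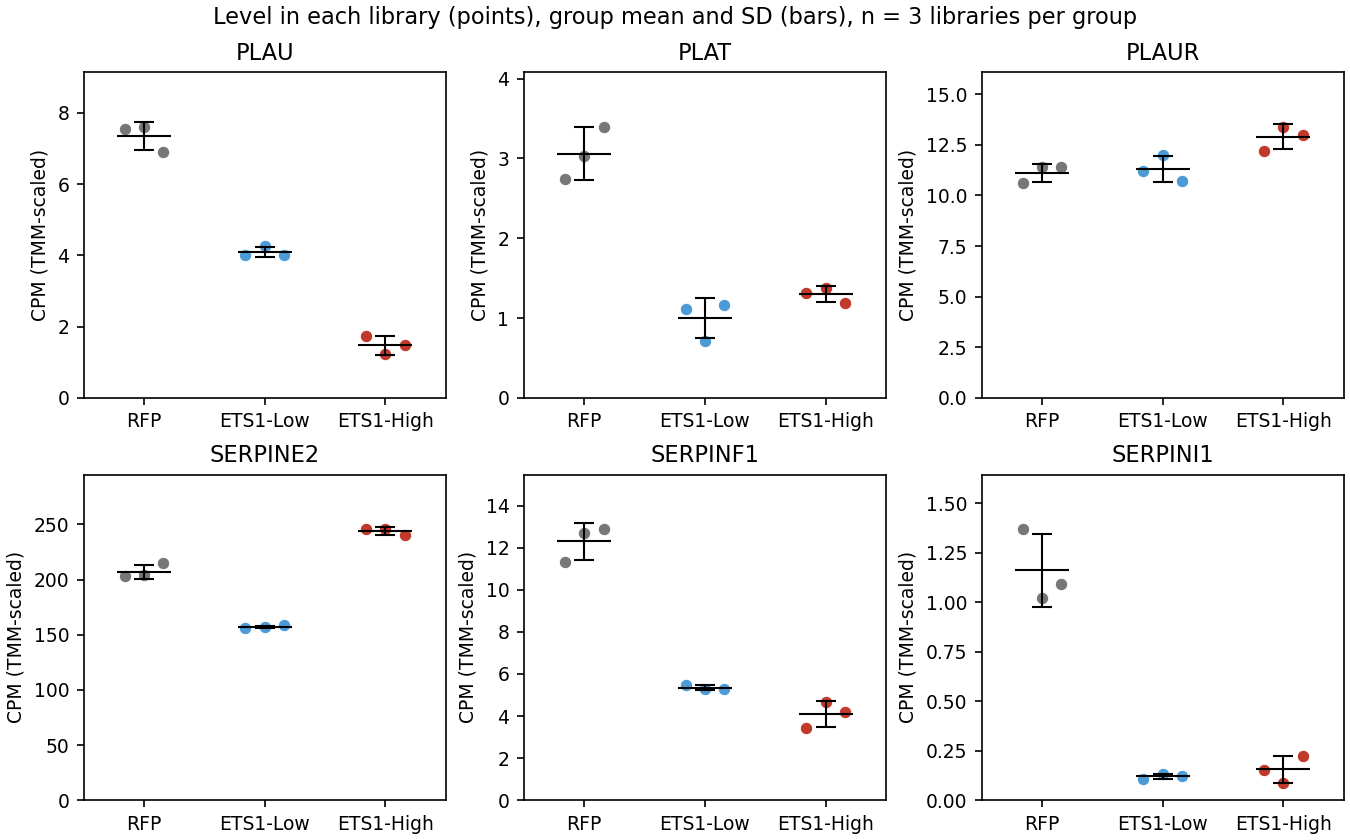
Level of each of the 6 genes in TMM-scaled CPM (linear axes from 0) in the 3 libraries of each group (points), with the group mean and SD (bars). PLAU stepped down from 7.36 to 4.1 to 1.48 CPM from RFP to ETS1-Low to ETS1-High, while SERPINE2 was lowest in ETS1-Low and highest in ETS1-High, a rise over RFP that turned to -0.33 less its local median, as that of PLAUR turned to -0.15.

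PLAU, the urokinase gene (ENSG00000122861.15, chromosome 10, 73909177 to 73917496, plus strand, in GENCODE v44 on GRCh38, as for all positions of genes here), fell in 2 steps. Its expected counts were 364, 357 and 337 in RFP, 152, 192 and 164 in ETS1-Low, and 69, 55 and 66 in ETS1-High. Scaled to a common library size (CPM, with TMM factors), these are 7.56, 7.62 and 6.9 CPM in RFP, 4.02, 4.27 and 4.0 CPM in ETS1-Low, and 1.75, 1.22 and 1.48 CPM in ETS1-High. The 3 groups did not overlap in any pair, with RFP highest and ETS1-High lowest. PLAU fell by 2.32 (SE 0.12) on the log2 scale in ETS1-High against RFP, which is 4.98-fold lower (edgeR adjusted p 1.19e-23). In ETS1-Low against RFP it fell by 0.84 (SE 0.1; edgeR adjusted p 1.5e-10), and in ETS1-High against ETS1-Low by 1.47 (SE 0.13; edgeR adjusted p 1.96e-14). A called fall in both steps was shared by 6.88% of all genes tested. Genes within 10 Mb of PLAU had a median log2 ratio of 0.07 in ETS1-High against RFP, 0.27 in ETS1-Low against RFP and -0.31 in ETS1-High against ETS1-Low. Less these local medians, PLAU stood at -2.38, -1.11 and -1.16. Its next tested neighbour downstream, VCL, was higher in ETS1-High and in ETS1-Low than in RFP, by log2 ratios of 1.04 and 1.18. The other nearest tested genes changed less, with -0.12 and 0.24 for NDST2, -0.23 and 0.13 for CAMK2G, and -0.15 and 0.11 for AP3M1.

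PLAT, the tissue plasminogen activator gene (ENSG00000104368.17, chromosome 8, 42174718 to 42207709, minus strand), was lower in both ETS1 groups than in RFP and not called between them. It had 2.74, 3.03 and 3.4 CPM in RFP, 1.11, 0.712 and 1.17 CPM in ETS1-Low, and 1.32, 1.38 and 1.19 CPM in ETS1-High, from 32 to 166 counts per library. All RFP libraries lay above all ETS1 libraries, and the lowest ETS1-High library lay just above the highest ETS1-Low library. The log2 ratio was -1.24 (SE 0.16) in ETS1-High against RFP (edgeR adjusted p 3.01e-09) and -1.63 (SE 0.17) in ETS1-Low against RFP (edgeR adjusted p 6.4e-12). Between ETS1-High and ETS1-Low it was 0.39 (SE 0.2), which missed the threshold (edgeR adjusted p 0.0856). Without ETS1-Low replicate 3 that difference was 0.53 and passed (edgeR adjusted p 0.0419), and without ETS1-Low replicate 2, the library lowest in PLAT, it was 0.18 (edgeR adjusted p 0.485). The median of the genes within 10 Mb of PLAT was -0.22 in ETS1-High against RFP and 0.08 in ETS1-Low against RFP, and less these PLAT stood at -1.02 and -1.71. Between ETS1-High and ETS1-Low the local median was -0.36, and less this PLAT stood at 0.74 in place of 0.39. The nearest tested genes on either side lay below the local median in ETS1-High against RFP: KAT6A (-0.58), AP3M2 (-0.4), IKBKB (-0.65) and POLB (-0.63). In ETS1-Low against RFP they stood at -0.4, -0.08, -0.17 and -0.16. Each of these falls was smaller than that of PLAT.

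PLAUR, the urokinase receptor gene (ENSG00000011422.11, chromosome 19, 43646095 to 43670547, minus strand), was not called lower in any comparison, unlike the gene of its ligand. It had 10.6, 11.4 and 11.4 CPM in RFP, 11.2, 12 and 10.7 CPM in ETS1-Low, and 12.2, 13.4 and 13 CPM in ETS1-High. The ETS1-High libraries lay above all others by a small margin, and the RFP and ETS1-Low libraries overlapped. ETS1-High was higher than RFP by a log2 ratio of 0.21 (SE 0.07; edgeR adjusted p 0.00424). ETS1-Low and RFP differed by 0.02 (SE 0.07; edgeR adjusted p 0.787). On FPKM the ETS1-Low libraries (10.9 to 11.5) instead lay below the RFP libraries (11.74 to 12.59). The difference on log2(FPKM + 1) was -0.11 and missed the threshold (limma adjusted p 0.0508). ETS1-High was higher than ETS1-Low by 0.19 (SE 0.07; edgeR adjusted p 0.0141), a call that was lost without ETS1-Low replicate 3 (0.15, adjusted p 0.0846) or without ETS1-High replicate 2 (0.16, adjusted p 0.0661). The 355 genes within 10 Mb had medians against RFP of 0.36 (ETS1-High) and 0.37 (ETS1-Low). Less these, PLAUR stood at -0.15 and -0.35, so the direction of its rise in ETS1-High turned relative to its region.

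**Figure D2:**
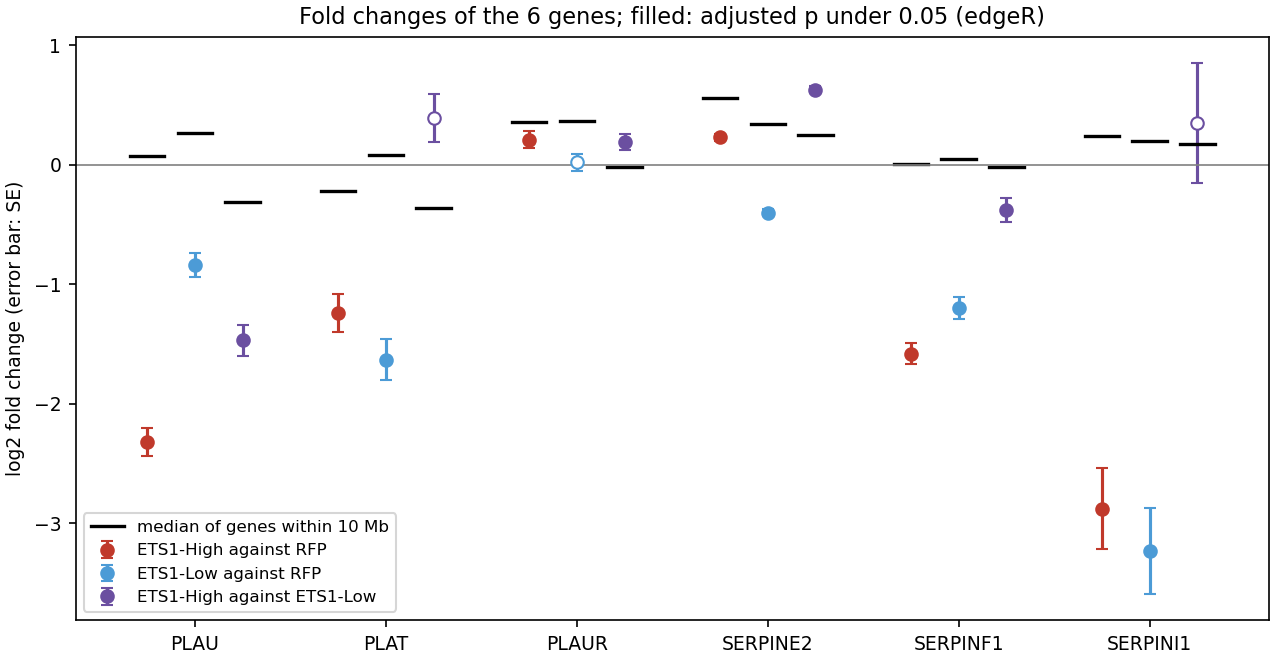
Log2 ratios of the 6 genes (y axis, error bars SE) in the 3 comparisons, filled where the adjusted p was under 0.05 in edgeR, with black bars for the median of tested genes within 10 Mb. PLAU, PLAT, SERPINF1 and SERPINI1 lay below their local medians in both comparisons with RFP by about 1 log2 unit or more, from -1.02 for PLAT in ETS1-High to -3.43 for SERPINI1 in ETS1-Low.

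SERPINE2, the glia-derived nexin gene (ENSG00000135919.12, chromosome 2, 223975045 to 224039318, minus strand), was by far the most abundant of the 6 and the only member with called changes of opposite sign in the ETS1 groups against RFP. It had 203, 204 and 215 CPM in RFP, 156, 157 and 159 CPM in ETS1-Low, and 246, 246 and 240 CPM in ETS1-High, from 5895 or more counts per library. The 3 groups did not overlap. SERPINE2 was lower in ETS1-Low than in RFP by a log2 ratio of -0.4 (SE 0.03; edgeR adjusted p 5.91e-17) and above RFP in ETS1-High by 0.23 (SE 0.03; edgeR adjusted p 6.93e-10). The direct comparison of ETS1-High with ETS1-Low gave 0.63 (SE 0.03; edgeR adjusted p 2.58e-24), 1.55-fold. A called fall in ETS1-Low followed by a called rise from ETS1-Low to ETS1-High was found for 15.3% of all genes. That share is of a wider pattern than the one of SERPINE2, since it does not require ETS1-High to lie above RFP. The region of SERPINE2 was itself higher, with local medians against RFP of 0.56 (ETS1-High) and 0.34 (ETS1-Low). Less these, SERPINE2 stood at -0.33 and -0.74, so the rise in ETS1-High turned to a fall relative to its region, while ETS1-High stayed above ETS1-Low, by 0.38.

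SERPINF1, the gene of pigment epithelium-derived factor (ENSG00000132386.10, chromosome 17, 1762029 to 1777565, plus strand), was lower in both ETS1 groups. It had 11.3, 12.7 and 12.9 CPM in RFP, 5.47, 5.29 and 5.3 CPM in ETS1-Low, and 3.43, 4.65 and 4.19 CPM in ETS1-High, from 135 to 629 counts per library. The groups did not overlap, and the 3 ETS1-High libraries were more spread (SD 0.617 CPM) than the 3 ETS1-Low libraries (SD 0.104 CPM). The log2 ratio was -1.58 (SE 0.09) in ETS1-High against RFP (edgeR adjusted p 7.39e-22) and -1.2 (SE 0.09) in ETS1-Low against RFP (edgeR adjusted p 8.64e-18). ETS1-High was below ETS1-Low by -0.38 (SE 0.1; edgeR adjusted p 0.000823), a call that did not hold on log2(FPKM + 1) values without a filter (-0.34; adjusted p 0.113, limma). Local medians were 0.01 (ETS1-High) and 0.05 (ETS1-Low) against RFP. SERPINF2, which encodes the main plasmin inhibitor of blood and lies next to SERPINF1 with its start 19193 bases before, had 7 to 11 counts per library and no call in any comparison.

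SERPINI1, the neuroserpin gene (ENSG00000163536.12, chromosome 3, 167735243 to 167825569, plus strand), had the largest fold difference of the 6 against RFP and the lowest level. Its counts were 66, 48 and 53 in RFP, 4, 6 and 5 in ETS1-Low, and 6, 4 and 10 in ETS1-High. These are 1.37, 1.02 and 1.09 CPM in RFP and between 0.089 and 0.224 CPM in the 6 ETS1 libraries. RFP stood clear of both ETS1 groups, whose ranges overlapped each other. SERPINI1 passed the filter on low counts only through the RFP libraries, so the filter itself favoured a fall. The log2 ratio was -2.88 (SE 0.34) in ETS1-High against RFP (edgeR adjusted p 1.29e-10) and -3.23 (SE 0.36) in ETS1-Low against RFP (edgeR adjusted p 2.39e-11). Between the ETS1 groups it was 0.35 (SE 0.5; edgeR adjusted p 0.576), a difference that was not detectable at this depth. The 34 genes within 10 Mb had medians against RFP of 0.24 (ETS1-High) and 0.2 (ETS1-Low), opposite in sign to SERPINI1, which stood at -3.12 and -3.43 less these. Its nearest neighbours went against that median. PDCD10, the tested gene next to SERPINI1 upstream, was lower by log2 ratios of -0.27 and -0.41 in ETS1-High and ETS1-Low against RFP, and GOLIM4, the next downstream, by -0.44 and -0.78. The tested genes beyond them were nearly silent in the ETS1 groups. ZBBX, with its start 495400 bases from that of SERPINI1, had 12 to 14 counts in RFP, 0 in ETS1-Low and 0 to 2 in ETS1-High. EGFEM1P, a pseudogene 514279 bases away, had 25 to 43 counts in RFP and 0 in each of the 6 ETS1 libraries. Both passed the filter on low counts only through RFP, so the filter fixed their direction and they say nothing about the region.

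Levels of different genes were compared on the deposited FPKM values, which are scaled by gene length. The order was the same in the 3 groups: SERPINE2, PLAUR, SERPINF1, PLAU, PLAT and SERPINI1. In RFP the means were 107, 12.3, 11, 3.63, 1.39 and 0.89 FPKM, and in ETS1-Low 74.9, 11.3, 4.58, 1.83, 0.453 and 0.103 FPKM. In ETS1-High they were 118, 13.6, 3.45, 0.663, 0.553 and 0.147 FPKM, and there the libraries of PLAU (0.54 to 0.79 FPKM) and PLAT (0.46 to 0.66 FPKM) overlapped. Neighbours in the order did not overlap elsewhere, although in RFP the highest SERPINI1 library (1.26 FPKM) came close to the lowest PLAT library (1.29 FPKM), and the highest SERPINF1 library (11.66 FPKM) came close to the lowest PLAUR library (11.74 FPKM). SERPINE2 ranked 828 among 28074 genes above 0 FPKM in RFP, 1231 among 26191 in ETS1-Low and 721 among 26373 in ETS1-High. PLAU moved from rank 10571 in RFP to 11835 in ETS1-Low and 13918 in ETS1-High.

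The ratio of receptor to ligand transcripts followed from these levels. PLAUR stood at 3.24, 3.3 and 3.61 times the FPKM of PLAU in RFP, 6.16, 6.05 and 6.3 times in ETS1-Low, and 16.4, 25.6 and 21.3 times in ETS1-High. The FPKM of PLAU and PLAT together fell from 5.02 ± 0.122 in RFP to 2.28 ± 0.117 in ETS1-Low and 1.22 ± 0.106 in ETS1-High (SD, n = 3). SERPINE2 stood at 21.2, 20.6 and 22.1 times that sum in RFP, 31.0, 34.4 and 33.2 times in ETS1-Low, and 89.9, 98.0 and 103 times in ETS1-High. The 3 groups did not overlap in any of these quantities, which are built from the values above and are no separate evidence.

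The other genes of the plasminogen system were read from a list of activators, inhibitors, receptors and clearance genes. Apart from the members it held 31 genes, of which 22 were tested. In ETS1-High against RFP 9 were called higher and 9 lower, near the 37.0% and 37.2% of all genes, with a median log2 ratio of 0.14 beside -0.01 over all genes tested. In ETS1-Low against RFP 9 were higher and 8 lower, near the 37.9% and 36.2% of all genes, with a median of 0.13 beside 0.01. PLG, the gene of plasminogen itself, had 0 to 2 counts per library and was not tested. VTN, whose product vitronectin binds the urokinase receptor, had 2 to 14 counts per library and was not called in any comparison.

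Among the inhibitors, A2M, which encodes a broad protease trap of plasma, had 241.99 to 286 counts in RFP, 6 to 11 in ETS1-Low and 1 to 2 in ETS1-High. SERPING1, the inhibitor of early complement proteases and of plasma kallikrein, fell in steps from 18.4 ± 0.357 CPM in RFP to 6.35 ± 0.365 in ETS1-Low and 2.45 ± 0.398 in ETS1-High (SD, n = 3), with a call in each step. CPB2, which encodes a carboxypeptidase that slows fibrin breakdown, rose in ETS1-High, by a log2 ratio to RFP of 0.52 (SE 0.16; edgeR adjusted p 0.00263).

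**Figure D3:**
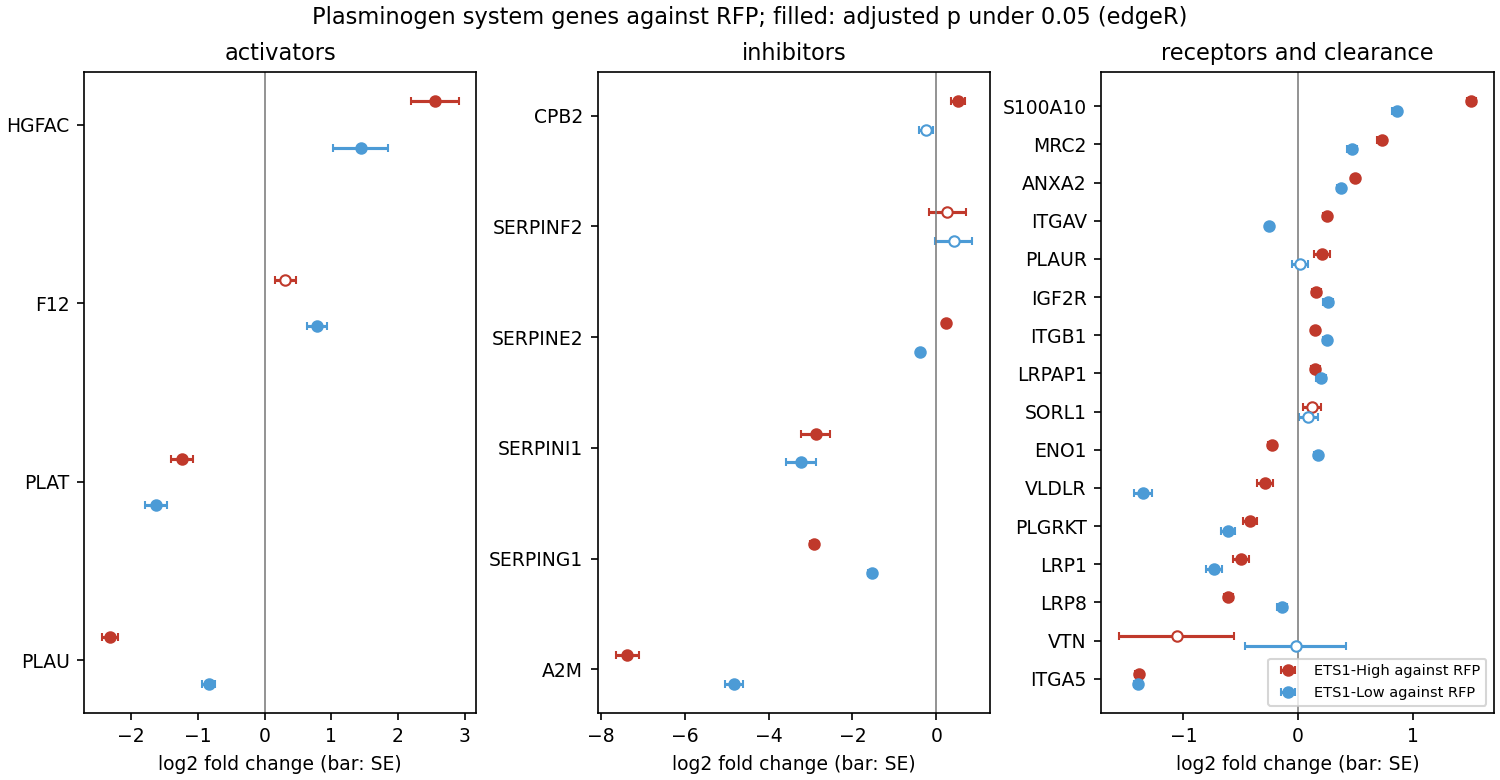
Log2 ratios against RFP (x axis, error bars SE) of tested activators, inhibitors, and receptors and clearance genes of the plasminogen system, members included and 1 inhibitor left out, in ETS1-High (red) and ETS1-Low (blue), filled where the adjusted p was under 0.05 in edgeR. PLAU and PLAT lay below 0 in both groups while the receptor and clearance genes spread to both sides, from S100A10 at 1.51 to ITGA5 at -1.39 in ETS1-High.

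Among receptors and clearance genes, members included, 8 of 16 tested genes were called higher and 6 lower in ETS1-High against RFP, where 37.0% and 37.2% of all genes were. In ETS1-Low 7 were higher and 6 lower than in RFP, beside 37.9% and 36.2%. S100A10 and ANXA2, which form the annexin complex that binds plasminogen and tissue plasminogen activator, rose in both groups. S100A10 had 33.8 ± 2.1 CPM in RFP, 61.3 ± 1.61 in ETS1-Low and 96.4 ± 1.86 in ETS1-High, and ANXA2 had 884 ± 14.9, 1140 ± 25.6 and 1250 ± 40.7 CPM (SD, n = 3). MRC2, the collagen receptor that associates with the urokinase receptor, rose as well, from 50.1 ± 3.55 to 69.2 ± 0.737 and 82.9 ± 2.14 CPM. ITGA5, the alpha chain of the fibronectin receptor, fell from 140 ± 0.959 CPM to 53.0 ± 0.83 in ETS1-Low and 53.3 ± 0.995 in ETS1-High. LRP1, the endocytic receptor that clears complexes of protease and serpin, fell from 202 ± 3.21 CPM to 122 ± 4.01 and 143 ± 14.3 CPM, with log2 ratios of -0.73 in ETS1-Low (edgeR adjusted p 1.42e-05) and -0.5 in ETS1-High (edgeR adjusted p 0.000158). PLGRKT, a plasminogen receptor of the cell membrane, was lower by -0.61 in ETS1-Low and -0.42 in ETS1-High, and VLDLR, another clearance receptor, by -1.35 and -0.29.

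Of the activators, the list held 8 genes and 4 were tested, PLAU and PLAT among them. F12, which encodes a contact-phase protease, was higher in ETS1-Low than in RFP by a log2 ratio of 0.79 (edgeR adjusted p 8.35e-06) and not called in ETS1-High (0.31; edgeR adjusted p 0.0696). HGFAC, the activator of hepatocyte growth factor, had 6 to 7 counts in RFP, 11 to 18 in ETS1-Low and 28 to 39 in ETS1-High, and was called higher in both ETS1 groups.

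The serpin family holds 35 protein-coding genes in the tables, of which 11 were tested and 12 were at 0 in every library. In ETS1-High against RFP 5 of the 11 were called higher and 4 lower, near the shares of 37.0% and 37.2% over all genes. In ETS1-Low against RFP 4 were higher and 5 lower, beside 37.9% and 36.2%, and the medians were 0.23 and 0.24 beside -0.01 and 0.01 over all genes. The summed FPKM of the family was 373 ± 8.14 in RFP, 389 ± 3.0 in ETS1-Low and 401 ± 4.58 in ETS1-High (SD, n = 3). SERPINH1, a collagen chaperone of the endoplasmic reticulum, was the most abundant, at 197 ± 5.12, 249 ± 2.92 and 222 ± 3.87 FPKM. SERPINE2 came next and made up 28.6% of the family's FPKM in RFP, 19.3% in ETS1-Low and 29.4% in ETS1-High. SERPINB5, which encodes maspin, rose from 8.89 ± 0.692 CPM in RFP to 66.1 ± 1.21 in ETS1-Low and 51.4 ± 2.23 in ETS1-High, the largest rise among the tested serpins, and SERPINB8, an intracellular serpin, from 4.25 ± 0.297 to 8.16 ± 0.545 and 10.3 ± 0.43 CPM. SERPINB6, another intracellular serpin, stayed near its RFP level, with log2 ratios of -0.18 in ETS1-Low (edgeR adjusted p 3.83e-05) and -0.08 in ETS1-High (edgeR adjusted p 0.0635).

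**Figure D4:**
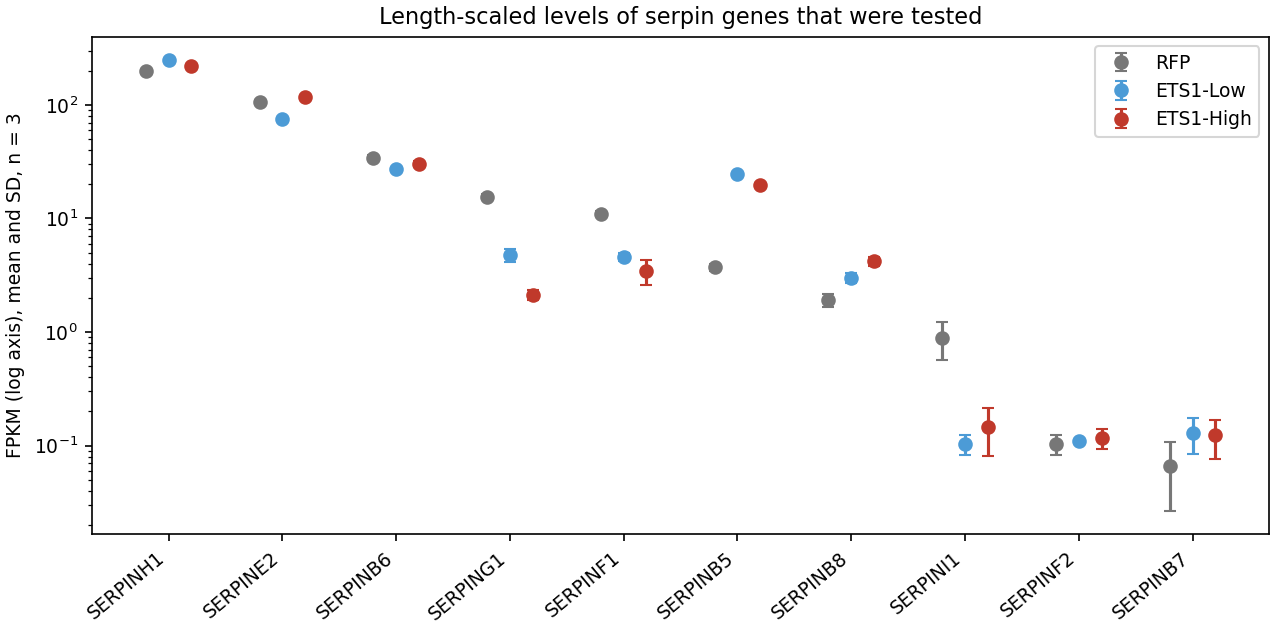
Length-scaled level in FPKM (log axis) of 10 of the 11 tested serpin genes by group, as mean and SD of 3 libraries. SERPINH1 and SERPINE2 stood highest in each group, SERPING1, SERPINF1 and SERPINI1 lay lower in both ETS1 groups than in RFP, and SERPINB5 rose from 3.7 FPKM in RFP to 24.8 in ETS1-Low and 19.7 in ETS1-High.

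Of 15 tested genes listed as targets of urokinase or plasmin, 7 were called higher and 7 lower in ETS1-High against RFP, beside 37.0% and 37.2% of all genes. In ETS1-Low 6 were higher and 7 lower than in RFP, beside 37.9% and 36.2%. HGF, a growth factor made as an inactive precursor that urokinase can cut, had 0 to 2 counts in RFP, 47 to 64 in ETS1-Low and 268 to 318 in ETS1-High. TGFB1, whose latent form plasmin can release, rose from 73.7 ± 2.1 CPM in RFP to 288 ± 4.91 in ETS1-Low and 225 ± 9.2 in ETS1-High. LTBP1, which tethers latent TGF-beta to the matrix, had 8.67 ± 0.377 CPM in RFP, 7.32 ± 0.234 in ETS1-Low and 73.9 ± 3.23 in ETS1-High. PDGFD, a growth factor that urokinase activates, fell from 3.55 ± 0.292 CPM to 0.269 ± 0.0475 in ETS1-Low and 2.56 ± 0.335 in ETS1-High. MMP9, a gelatinase downstream of plasmin, fell from 5.44 ± 0.459 CPM to 1.8 ± 0.0946 and 2.04 ± 0.0867 CPM (SD, n = 3 throughout).

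Among other serine proteases, their inhibitors and receptors, 16 of 24 listed genes were tested, with 7 higher and 8 lower in ETS1-High than in RFP, beside 37.0% and 37.2% of all genes. In ETS1-Low 7 were higher and 6 lower, beside 37.9% and 36.2%. HTRA1, a secreted serine protease, fell from 19.0 ± 0.684 CPM in RFP to 3.08 ± 0.244 in ETS1-Low and 1.48 ± 0.141 in ETS1-High. PRSS12, which encodes neurotrypsin, fell from 4.28 ± 0.186 CPM to 0.244 ± 0.0211 and 1.15 ± 0.041 CPM. F3, the tissue factor gene that starts coagulation, rose from 5.31 ± 0.474 CPM to 36.1 ± 0.382 and 29.8 ± 1.37 CPM. SPINT1, a membrane inhibitor of the activator of hepatocyte growth factor, was called lower in ETS1-High than in RFP (-1.43; edgeR adjusted p 1.16e-15) and not called in ETS1-Low (-0.21; edgeR adjusted p 0.0642), and the ETS1 groups differed directly by -1.22, ETS1-High being lower (edgeR adjusted p 1.48e-12).

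The genes with the most similar pattern over the 9 libraries were found by the Euclidean distance between log2 CPM profiles, each centred on its own mean, among the 12397 tested genes averaging 100 counts or more. RASSF5 (distance 0.38) and BEND4 (0.46) came closest to PLAU, and RASSF5 had 8.2 CPM in RFP, 4.69 in ETS1-Low and 1.58 in ETS1-High. DENND1A (0.43) and PCBP4 (0.54) came closest to PLAT, THYN1 (0.11) and BLVRA (0.12) to PLAUR, and SLC44A1 (0.09) and SURF4 (0.11) to SERPINE2. C8orf4 (0.25) and KB-1460A1.5 (0.32) came closest to SERPINF1, and SLFN12 (0.85) and MYBL1 (0.92) to SERPINI1. Among the 6 members, the closest pair was PLAUR and SERPINE2 at 0.63 and the farthest PLAUR and SERPINI1 at 4.55. The distance grows with the size of the changes, and PLAUR and SERPINE2 changed less against RFP than the other members. Their patterns still differed, since in ETS1-Low against RFP PLAUR was not called (0.02) and SERPINE2 was called lower (-0.4). PLAU stood closer to SERPINF1 (1.52) than to PLAT (2.45) or to its receptor PLAUR (3.18).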

How the data were processed

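RNA-seq gene tables of 9 TC-32 libraries were used. The authors deposited expected counts per gene and FPKM values, in tables whose names give RSEM as their source. The submitters' processing notes name cutadapt 4.4, STAR 2.7.3, featureCounts, Subread 2.0.3, limma 3.38.3 and GRCh38, without roles. The notes do not list RSEM, so the counting step behind the tables is not settled. The annotation release and the use of strand are not given in the sources used here, and libraries came from a stranded mRNA kit. Columns were matched to libraries by name, with L and H read as Low and High.

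Rounded expected counts entered a quasi-likelihood fit in edgeR 4.0.16 (R 4.3.3; TMM, filterByExpr, robust) over 17235 genes, with 9 libraries in a single fit by group and Benjamini-Hochberg adjustment over all genes tested. Standard errors were taken as the fold change over the root of F. The procedure was tested on simulated data. CPM use TMM-scaled totals, and FPKM served for comparing genes. Replicate libraries differed by more than sampling noise (chi-square per gene 2.66 to 5.19 over genes with at least 50 counts), so each counted separately. That does not show that they are independent cultures, since the labels do not give their origin. Intervals and floors would cover counting error only, since reads carry no molecular identifiers. Local medians took tested genes with a mean log2 CPM above 1 within 10 Mb, with GENCODE v44 positions. HPSE, a sugar-cleaving enzyme placed in the protease list in error, is counted there but not described. Members, lists and naming rules were chosen with earlier results of these data known. From each list the rule named up to 4 genes per direction with the largest called changes and a mean of at least 50 counts, of which the text describes a part. 1 gene it named is counted in the lists but not reported here. It also named PLG, VTN and LRP1, and 2 genes of closest pattern per member. HGFAC, SERPINF2, C10orf55 and the chromosome neighbours lie outside the rule and were named after their values were seen.
Alternatives were other size factors, DESeq2 1.42.0, other filters, a replicate block, fits restricted to the pair of groups compared, omission of each library in turn, and limma 3.58.1 on log2(FPKM + 1) or log2(FPKM + 0.1).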

Additional observations from a re-analysis of the deposited data

Results flagged for a closer look

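For 4 of the 6 genes the changes in ETS1-High and ETS1-Low against RFP were unequal, as the direct edgeR test of ETS1-High against ETS1-Low shows, a test that called 59.2% of all genes, so 4 of 6 is near the background. The log2 fold changes were -1.47 for PLAU, 0.19 for PLAUR, 0.63 for SERPINE2 and -0.38 for SERPINF1. For PLAU and SERPINF1 the difference extended the fall seen in ETS1-Low. For SERPINE2 it ran against the fall in ETS1-Low, and 0.38 of it remained after the local median was taken away. For PLAUR the difference was 0.15 without ETS1-Low replicate 3 and 0.16 without ETS1-High replicate 2, close to the full value, and missed the threshold in both cases (edgeR adjusted p 0.0846 and 0.0661).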

How the results depend on the processing

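Over 18 fold changes of the 6 genes and 18 alternative settings with a test, 304 of 308 values kept their direction or lack of a call and their side of the threshold. The exceptions were PLAUR and PLAT between the ETS1 groups when a library was left out (0.15 to 0.24 and 0.18 to 0.53) and SERPINF1 between them on unfiltered log2(FPKM + 1) values (-0.34). Less the local median, PLAUR (-0.15) and SERPINE2 (-0.33) turned direction in ETS1-High against RFP. In ETS1-Low against RFP PLAU moved to -1.11, PLAUR to -0.35 and SERPINE2 to -0.74. PLAT moved to -1.02 in ETS1-High against RFP, and PLAU to -1.16, SERPINE2 to 0.38 and PLAT to 0.74 in ETS1-High against ETS1-Low. On FPKM values with a mean of at least 1, PLAT and SERPINI1 were not tested, so the members called lower against RFP were 2 (ETS1-High) and 3 (ETS1-Low). On unfiltered log2(FPKM + 1) values 1 member was called lower in ETS1-High against ETS1-Low, and leaving out a library gave 1 to 2 called higher there. Unfiltered FPKM tested more genes, and 8 (ETS1-High) and 9 (ETS1-Low) serpins were then called lower than in RFP. In that setting most calls over all genes were lower too, as given below, so these counts do not set the serpins apart. Of the plasminogen list, 7 (pseudocount 1, with or without the filter) or 6 (pseudocount 0.1) were called higher in ETS1-High against RFP, and 5 lower in ETS1-High against ETS1-Low with either pseudocount; the cause was not tested. The share of all calls that were higher relative to RFP was 49.8% (ETS1-High) and 51.2% (ETS1-Low) on counts, 41.2% and 41.6% in limma on filtered log2(FPKM + 1), and 38.4% and 36.8% without the filter. These settings change measure and method together. The numbers of the libraries did not pair them (correlations of same-numbered libraries -0.09 to 0.105). With the replicate number as a block, 12701, 12729 and 10122 genes were called in ETS1-High against RFP, ETS1-Low against RFP and ETS1-High against ETS1-Low, and no call of the 6 genes changed. SERPINI1, at 4 to 10 counts in the ETS1 libraries, is limited by depth. With at least 10 counts required in every library it was not tested, and 3 members were called lower in ETS1-High against RFP.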
